A study of Ovis aries with 9 samples.

Results

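The calcium/calmodulin-dependent protein kinases and calmodulins described here were 9 genes, CAMK2A, CAMK2B, CAMK2D, CAMK2G, CAMK4, CAMKK1, CAMKK2, CALM2 and CALM3. The set was defined by gene symbol, with no threshold on the values. All 9 were found among the 21284 protein-coding genes of the deposited table, and they accounted for 103 of its 76684 mRNA transcripts. The libraries were made from hypothalamic RNA of Dolang sheep, with 3 animals at prepuberty (120 days after birth), 3 at puberty (130 days) and 3 at postpuberty (150 days). The labels name no treatment. Each stage was sampled at a single age, so stage and age cannot be told apart. Each level is a gene's FPKM (fragments mapped to a transcript, scaled by its length and by the fragments mapped in the library), summed over its mRNA transcripts.

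Calmodulin is a small calcium sensor that binds calcium ions and then activates many other proteins. In mammals several calmodulin genes encode the same protein. The kinases CAMKK1 and CAMKK2 are switched on by calcium-bound calmodulin and phosphorylate further kinases, among them CAMK4, a mainly nuclear kinase that phosphorylates the transcription factor CREB, and, for CAMKK2, AMPK, the cellular energy sensor. The 4 CAMK2 genes encode the alpha, beta, delta and gamma subunits of CaMKII, a multimeric kinase that can stay active after the calcium signal has ended and is best known for its role at synapses. In the hypothalamus, calcium signalling through these proteins lies downstream of receptors such as that for oxytocin.

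In the ARS-UI_Ramb_v3.0 assembly the CAMK2 genes lie on 4 chromosomes, with CAMK2A at chr5:59337153-59402652, CAMK2B at chr4:78676828-78767631, CAMK2D at chr6:12177912-12507118 and CAMK2G at chr25:28923024-28978292. CAMK4 lies at chr5:107842732-108117212, CAMKK1 at chr11:24372931-24405263 and CAMKK2 at chr17:53904889-53958837. The calmodulin genes lie at chr3:77213264-77226688 for CALM2 and chr14:53515003-53524046 for CALM3. In RefSeq, CALM3 overlaps PTGIR, CAMK2D and CAMKK1 each overlap a long noncoding RNA gene, and CAMKK2 overlaps a tRNA gene. The sources used here do not say whether the reads kept their strand, so reads in those overlaps may be shared between the genes.

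Library 2 of puberty stood apart from the rest. Its FPKM summed to 599726 over all transcripts against 359588 to 398109 in the other 8 libraries, and 23905 of its mRNA transcripts were above 0 against 43991 to 46987. Of the 9 genes, 8 had their lowest level in that library, as did 52.3% of the 14238 genes that passed the filter on low values. At the other end, 7 of the 9 genes were highest in prepuberty library 2, compared with 19.5% of all genes. Values are therefore given with and without puberty library 2. The hypothalamus label was checked on 12 genes that mark the region. GHRH was at most 0.0626 FPKM, SIX6 at most 0.0871 and NKX2-1 at most 0.262 in any library, AGRP at most 0.169 and SIM1 at most 0.111. OXT reached 4.81 and AVP 10.4 FPKM, while TRH ranged from 0.824 to 36.8 and POMC from 2.09 to 22.5 FPKM. HCRT was at most 1.68, SIX3 at most 2.06 and PMCH at most 0.699 FPKM. Thus 6 of the 12 markers reached a mean of 0.5 FPKM in a stage, and the other 6 did not reach it in any stage.

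**Figure D1:**
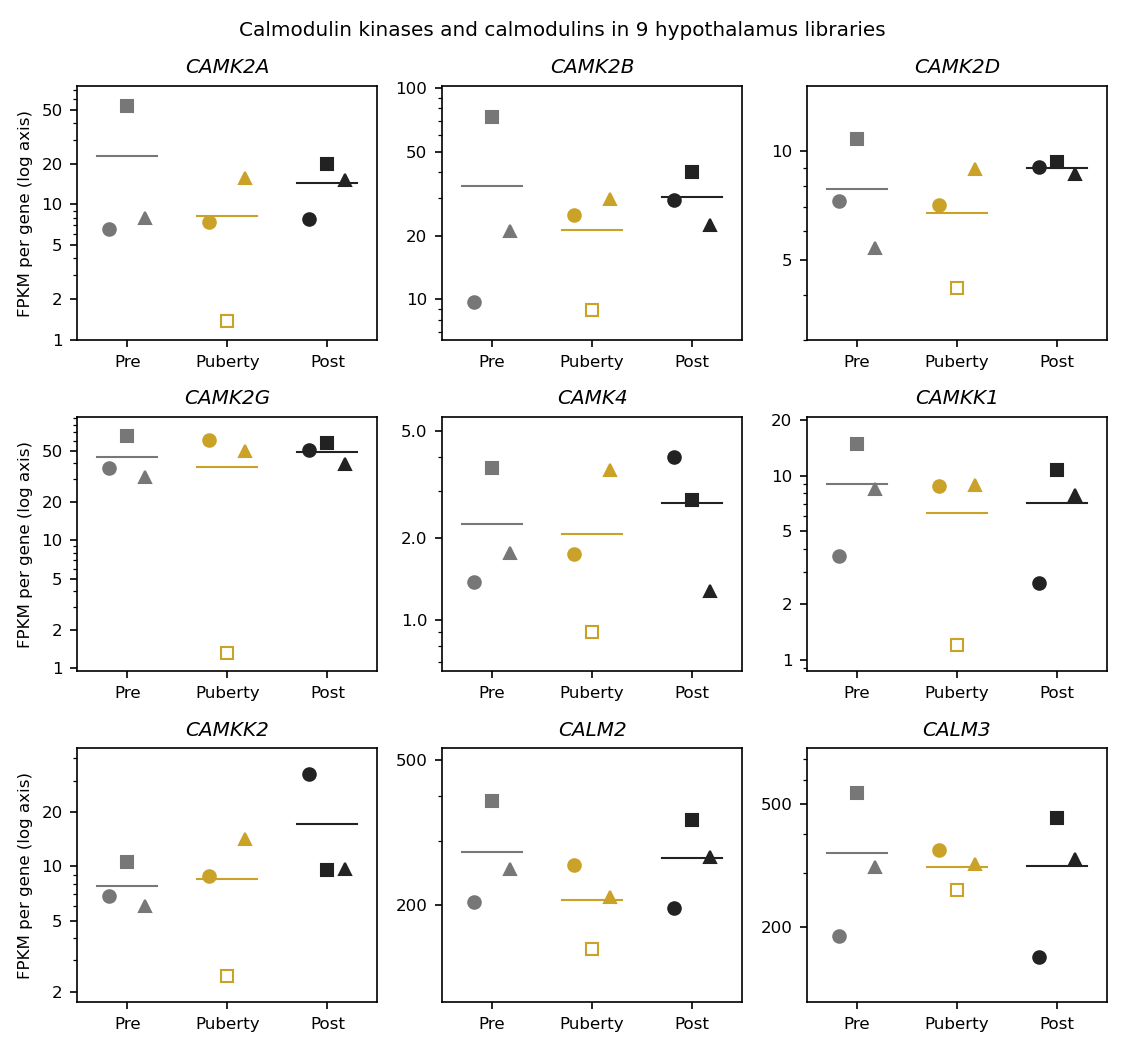
Level of each gene in FPKM (log axis, a different range in each panel) for the 3 prepuberty, 3 puberty and 3 postpuberty libraries. Circles, squares and triangles are libraries 1, 2 and 3 of a stage, the horizontal lines are stage means, and the open square is puberty library 2, which is the lowest point for every gene except CALM3. Prepuberty library 2 is the highest point in 7 panels, and CAMK4 and CAMKK2 are highest in postpuberty library 1.

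The calmodulin genes were by far the most abundant of the 9. CALM3 was measured at 186, 545 and 312 FPKM in prepuberty libraries 1 to 3, at 356, 264 and 320 FPKM in the puberty libraries, and at 159, 453 and 333 FPKM in the postpuberty libraries. The lowest and the second highest value of this gene thus came from the same stage, and the 3 stages overlapped. For CALM2 the levels were 204, 386 and 251 FPKM at prepuberty, 259, 152 and 212 FPKM at puberty, and 196, 342 and 271 FPKM at postpuberty. Nearly all of CALM2 (98.9% of its FPKM over the 9 libraries) was assigned to 1 of its 4 transcripts, NM_001009759.1, and CALM3 has only 1 transcript in the table. Because the coding parts of calmodulin genes resemble each other closely, the split of reads between them is uncertain.

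CALM3 made up 53.9% ± 5.58 (SD, n = 3) of the summed CALM2 and CALM3 level at prepuberty, 60.5% ± 2.80 (n = 3) at puberty and 52.3% ± 6.58 (n = 3) at postpuberty. The share was above that of CALM2 in 7 of 9 libraries, the exceptions being prepuberty library 1 (47.7%) and postpuberty library 1 (44.8%). All 3 puberty values, 57.9, 63.5 and 60.2%, lay above all 3 postpuberty values, while prepuberty library 2 (58.5%) lay inside the puberty range. An exact permutation test of the rank statistic across the stages gave p = 0.10, and p = 0.60 after Benjamini-Hochberg adjustment over the 6 shares tested (the smallest p it allows is 0.00357). The largest difference between stages, a postpuberty minus puberty value of -8.26 percentage points, had a two-sided exact permutation p of 0.10, which is the smallest that 3 against 3 libraries can give. Without puberty library 2 the puberty mean was 59.1%, and the exact permutation test across the stages gave p = 0.22 before adjustment.

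The upstream kinases differed from each other in which library was extreme. CAMKK1 was measured at 3.68, 14.9 and 8.41 FPKM at prepuberty, 8.80, 1.21 and 8.83 FPKM at puberty, and 2.61, 10.8 and 7.84 FPKM at postpuberty. Its low libraries were puberty 2, postpuberty 1 and prepuberty 1. CAMKK2 was measured at 6.88, 10.5 and 6.01 FPKM at prepuberty, 8.90, 2.45 and 14.3 FPKM at puberty, and 32.6, 9.52 and 9.71 FPKM at postpuberty. The highest CAMKK2 value therefore came from postpuberty library 1, in which CAMKK1 had its second lowest value. CAMKK2 made up 92.6% of the 2 genes' summed level in that library and 41.5 to 67.0% in the others. XM_027956490.3 carried 63.0% and XM_027956492.3 carried 29.3% of CAMKK2 over the 9 libraries, and in postpuberty library 1 the former alone stood at 25.3 FPKM. In the same library the 5 pituitary markers in the table summed to 203 FPKM, of which PRL was 199.5, against 0.125 to 81.7 FPKM elsewhere, and their part in the CAMKK2 level was not tested. For CAMKK1, 92.2% of the level was assigned to XM_015098582.4, which was at 0 in puberty library 2, where only XM_042255534.2 was above 0.

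CAMK4 had the lowest median level of the set and the lowest level in every library except postpuberty 1, where CAMKK1 was lower. Its values were 1.38, 3.64 and 1.77 FPKM at prepuberty, 1.76, 0.904 and 3.59 FPKM at puberty, and 4.01, 2.78 and 1.28 FPKM at postpuberty, so that each stage held at least 1 library below 2 FPKM and 1 above 3.5 FPKM. Only XM_027970560.3 was detected, and the second transcript, XM_060416621.1, was listed at 0 in all 9 libraries.

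Among the CaMKII subunits, CAMK2G was the leading gene in 7 of 9 libraries. Its levels were 37.1, 66 and 31.6 FPKM at prepuberty, 61.5, 1.32 and 50.0 FPKM at puberty, and 50.9, 58.3 and 39.6 FPKM at postpuberty. Without puberty library 2 the gene varied between 31.6 and 66 FPKM, and the stages overlapped. CAMK2B, the beta subunit, which binds actin, was measured at 9.67, 73.0 and 20.9 FPKM at prepuberty, 25.1, 8.93 and 29.9 FPKM at puberty, and 29.4, 39.9 and 22.6 FPKM at postpuberty. Prepuberty held both the highest CAMK2B level and, after puberty library 2, the lowest one. For CAMK2A, the alpha subunit that is abundant in forebrain excitatory neurons, the values were 6.53, 53.7 and 7.88 FPKM at prepuberty, 7.47, 1.38 and 15.8 FPKM at puberty, and 7.82, 19.8 and 15.3 FPKM at postpuberty. Prepuberty library 2 held 6.81 times the median CAMK2A level of the other libraries, puberty library 2 left aside. CAMK2D, the delta subunit, which is best known from heart muscle, was the steadiest of the 4, at 7.29, 10.8 and 5.39 FPKM at prepuberty, 7.09, 4.18 and 8.89 FPKM at puberty, and 9.01, 9.30 and 8.65 FPKM at postpuberty. The 3 postpuberty values of CAMK2D lay within 1 FPKM of each other and inside the prepuberty range.

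By median over the 9 libraries the order of levels was CALM3 (320 FPKM), CALM2 (251), CAMK2G (50.0), CAMK2B (25.1), CAMKK2 (9.52), CAMK2D (8.65), CAMKK1 (8.41), CAMK2A (7.88) and CAMK4 (1.77). Only CALM2 and CAMK2G were neighbours whose ranges over the libraries did not overlap. CALM3 exceeded CALM2 in 7 of 9 libraries and CAMK2G exceeded CAMK2B in 7 of 9. CAMKK2, CAMK2D, CAMKK1 and CAMK2A could not be ordered beyond their spread, since each was above the next in 6, 5 and 2 of 9 libraries. CAMK4 was below CAMK2A in every library.

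Taking the 4 CAMK2 genes as a family, their summed level ran from 60.6 to 204 FPKM in 8 libraries and was 15.8 FPKM in puberty library 2. CAMK2G made up 32.4 to 61.2% of it in the 8 libraries and 8.35% in puberty library 2. CAMK2B made up 16.0 to 35.9% in the 8 libraries and led the family in prepuberty library 2 (35.9%) and in puberty library 2 (56.5%). CAMK2A made up 7.39 to 26.4% and CAMK2D 5.31 to 12% in those 8, with 8.74 and 26.4% in puberty library 2. At postpuberty the 3 libraries were close to each other, with CAMK2G at 48.1% ± 3.75 (SD, n = 3) and CAMK2B at 29.3% ± 2.71 (n = 3). The prepuberty means were 47.2% ± 14.4 and 27.9% ± 10.5 (n = 3 each). No share differed between stages beyond the spread of the libraries, with exact permutation p-values from 0.51 to 0.99 for the 4 genes and 0.99 after adjustment. The summed CALM2 and CALM3 level was 3.66 to 8.57 times that of the CAMK2 family in 8 libraries and 26.3 times in puberty library 2.

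**Figure D2:**
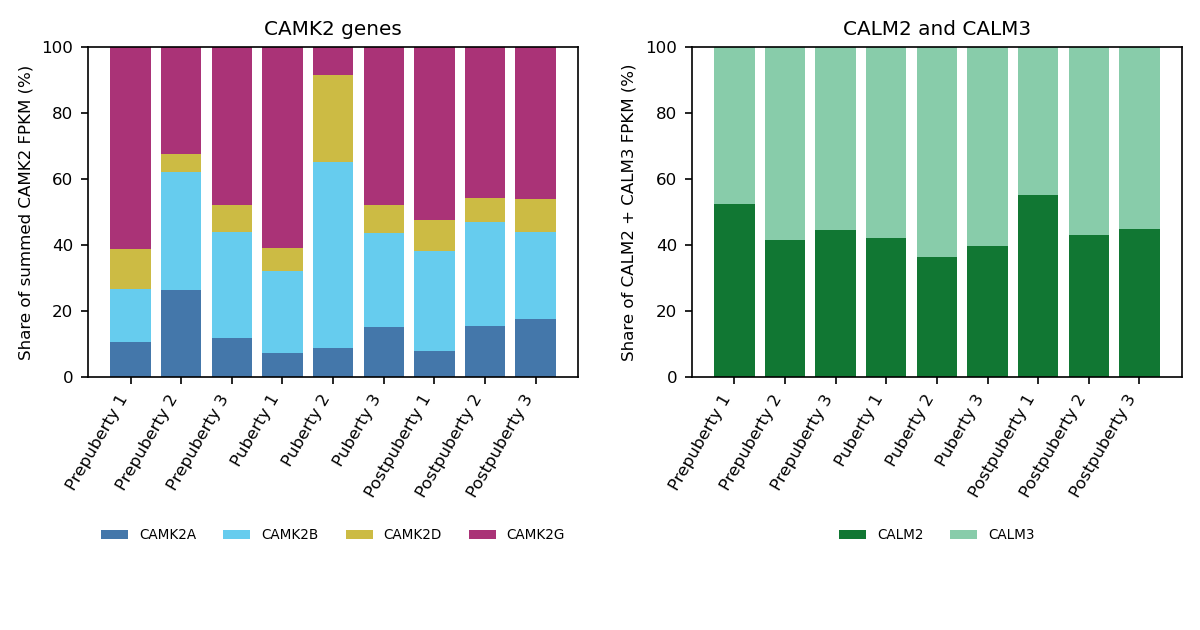
Share in percent of each CAMK2 gene in the summed CAMK2 FPKM (left) and of CALM2 and CALM3 in their sum (right), 1 bar per library. CAMK2G takes the largest part in 7 of 9 bars, CAMK2B in Prepuberty 2 and Puberty 2, and the CALM3 part lies between 44.8 and 63.5%.

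The transcripts of each gene showed how unlike the libraries were. CAMK2A has 2 transcripts in the table. XM_004008973.5 made up 59.7, 30.0 and 51.0% of CAMK2A in the postpuberty libraries, 12.2, 39.9 and 19.5% in the prepuberty libraries, and 20.9, 0 and 22.9% in the puberty libraries. The postpuberty shares were all above the puberty shares, and the prepuberty range overlapped the postpuberty one. This share was not among those tested. CAMK2B has 13 transcripts, of which XM_027968721.3, XM_027968723.3 and XM_027968726.3 carried 35.1, 22.2 and 16.0% of the level. In puberty library 2 all 3 were at 0, and 99.2% of CAMK2B was assigned to XM_027968714.3, which stood at 8.86 FPKM there and at 0 to 0.879 FPKM in the other libraries. CAMK2D has 29 transcripts. Its largest were XM_004009602.6 (28.9%), XM_060416702.1 (20.4%), XM_042251127.2 (15.9%) and XM_027970805.3 (15.7%), and again 99.2% went to a single one, XM_004009602.6, in puberty library 2.

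CAMK2G has 44 mRNA transcripts in the table, more than any other gene of the set. In 6 of the 9 libraries all 44 were above 0, in puberty library 3 and postpuberty library 2 it was 39, and in puberty library 2 it was 9. The gene is known for many splice forms of its variable linker, and these transcripts share most of their exons, so the assignment of short reads among them is an estimate. A different transcript led in different libraries, 5 in all. XM_027962341.2 led in prepuberty library 1 (13.6 FPKM), puberty library 3 (12.8) and postpuberty library 1 (17.1), yet it stood at 0.342 and 0.278 FPKM in prepuberty libraries 2 and 3 and at 1.33 FPKM in postpuberty library 3. XM_027962342.2 led in puberty library 1 (12.4 FPKM), postpuberty library 2 (16.4) and postpuberty library 3 (2.40). XM_042241096.1 was at 18.0 FPKM in prepuberty library 2 and at no more than 0.864 FPKM in any other. XM_060406678.1 led in prepuberty library 3 with 7.61 FPKM and did not exceed 0.424 FPKM elsewhere, and XM_060406673.1 led in puberty library 2 with 0.605 FPKM.

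Only 4 CAMK2G transcripts held at least 5% of the gene over the 9 libraries, namely XM_027962341.2 (15.2%), XM_027962342.2 (12.2%), XM_027962344.2 (9.91%) and XM_042241096.1 (5.31%), together 42.6%. XM_027962347.2 and XM_060406692.1 fell just short, each with 4.99%. XM_027962344.2 was at 9.33, 0.314 and 0.226 FPKM at prepuberty, 6.97, 0 and 7.67 FPKM at puberty, and 9.28, 4.59 and 0.901 FPKM at postpuberty, high in the libraries in which XM_027962341.2 was high. The 2 largest transcripts of a library held 61.8, 52.0 and 34.7% of the gene at prepuberty, 34.6, 62.4 and 40.8% at puberty, and 51.9, 42 and 11.1% at postpuberty. The effective number of transcripts (the inverse of the sum of squared shares) was 33.4 in postpuberty library 3 and 3.68 to 11.4 in the other 8. For XM_027962341.2, the largest over all libraries, the share of CAMK2G ranged from 0 to 36.7%, and no stage difference beyond this spread was found (exact permutation p = 0.93).

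**Figure D3:**
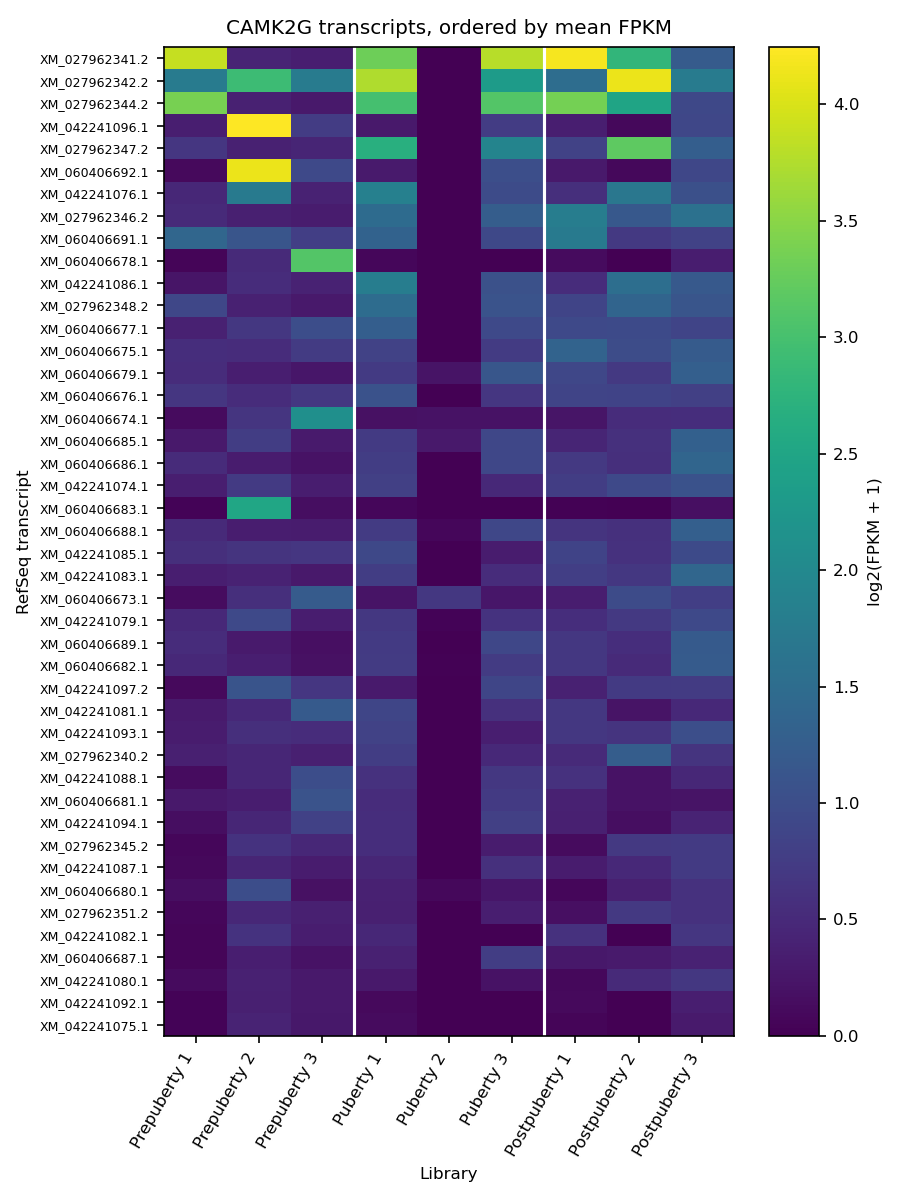
Level of the 44 CAMK2G mRNA transcripts (rows, ordered by mean FPKM) in the 9 libraries (columns, white lines between stages), as log2(FPKM + 1). The brightest cells change from library to library within a stage, 9 transcripts are above 0 in Puberty 2, and Postpuberty 3 spreads its signal over many rows.

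Some CAMK2G transcripts were separated by stage although the gene sum was not. Of all 44, 14 were higher in each postpuberty library than in every prepuberty library and none was lower, while among the 40501 transcripts of the table above 0 in at least 6 libraries 4.54% were higher in this way. For puberty against prepuberty the count was 0 of 44 (2.59% of all), and for postpuberty against puberty 2 of 44 (6.34%). Without puberty library 2, 14 of 44 were higher in both puberty libraries than in all prepuberty libraries (9.66% of all). In the same setting, 3 of 44 were higher at postpuberty than at puberty (8.69%) and 2 of 44 were lower. In either direction 11.4% of the 44 did not overlap between those stages, against 17.1% of all transcripts. The transcripts share reads, so they are not independent of each other, and the count was made after the values had been seen. For example, XM_060406686.1 and XM_060406688.1, both among the 14 of postpuberty against prepuberty, had r = 0.997 over the 9 libraries. None of the 4 largest transcripts was among the 14.

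Together these 14 transcripts, which were chosen for lying apart between those stages, held 5.53, 5.11 and 4.32 FPKM at prepuberty, 17.9, 0.243 and 12.5 FPKM at puberty, and 11.9, 19.0 and 18.2 FPKM at postpuberty. The other 30 held 31.6, 60.9 and 27.2 FPKM at prepuberty, 43.7, 1.08 and 37.5 FPKM at puberty, and 39.0, 39.3 and 21.4 FPKM at postpuberty. Some of the 14 were barely apart. The highest prepuberty and lowest postpuberty values were 0.456 and 0.464 FPKM for XM_060406689.1, and 0.447 and 0.457 FPKM for XM_042241086.1. XM_027962346.2 showed the widest gap of the 14, with 0.414, 0.302 and 0.245 FPKM at prepuberty, 1.79, 0 and 1.4 FPKM at puberty, and 2.47, 1.24 and 2.01 FPKM at postpuberty. Its log2 fold change from prepuberty to postpuberty was 1.12 (SE 0.41), a value given as a description, since the transcript was picked for its gap. The study reported CAMK2G as significantly higher at puberty and postpuberty, by tests other than the limma fit used here. In the study's co-expression network, CAMK2G was represented by XM_060406679.1 and XM_060406688.1, which were picked on these same libraries, so their stage pattern is not independent evidence. XM_060406679.1 was at 0.452, 0.286 and 0.189 FPKM at prepuberty, 0.649, 0.171 and 1.20 FPKM at puberty, and 0.875, 0.632 and 1.44 FPKM at postpuberty, with a log2 fold change from prepuberty to postpuberty of 0.58 (SE 0.31) and a limma adjusted p of 1. XM_060406688.1 was at 0.424, 0.271 and 0.258 FPKM at prepuberty, and at 0.658, 0.0555 and 0.862 FPKM at puberty. At postpuberty it was at 0.564, 0.503 and 1.45 FPKM. For XM_060406688.1 the log2 fold change from prepuberty to postpuberty was 0.45 (SE 0.32), also with an adjusted p of 1. Both transcripts lay below 1.5 FPKM in every library, in a gene of 31.6 to 66 FPKM outside puberty library 2.

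The 3 stages were then compared gene by gene with limma on log2(FPKM + 1), and a gene was called at a Benjamini-Hochberg adjusted p below 0.05 and a log2 fold change of at least 1. None of the 9 genes was called from prepuberty to puberty, from prepuberty to postpuberty or from puberty to postpuberty, and the same was true of every gene tested (0.0% of 14238 in each comparison). At an unadjusted p below 0.05 the counts were 0, 0 and 0 of the 9 genes and 259, 116 and 305 of all genes (1.82%, 0.815% and 2.14%). The 33 CAMK2G transcripts that passed the filter gave no call either (0.0% of 27674 transcripts), with 0, 1 and 0 at an unadjusted p below 0.05 (3.1%, 1.72% and 3.44% of all transcripts). When puberty library 2 was left out, the counts were 4, 4 and 0 of 36 CAMK2G transcripts, beside 3.35%, 3.17% and 3.48% of all transcripts, again with no call. With 9 libraries this spread leaves wide intervals, and a missing call does not show that levels were equal.

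The largest fold changes from prepuberty to puberty were those of CAMK2G (log2 fold change -1.16, SE 1.06) and CAMK2A (-1.14, SE 0.88), both with an adjusted p of 0.84. Without puberty library 2 they were 0.37 (SE 0.32) and -0.37 (SE 0.86), so the CAMK2G value changed sign. From puberty to postpuberty, CAMK2G had 1.36 (SE 1.06) with all libraries and -0.18 (SE 0.32) without puberty library 2. CAMKK2 showed the largest value from prepuberty to postpuberty, 0.86 (SE 0.61, adjusted p 1), and it was 0.30 without postpuberty library 1, the library at 32.6 FPKM. CALM2 (-0.04, SE 0.35) and CALM3 (-0.13, SE 0.48) had values near 0 in that comparison.

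From prepuberty to puberty the median log2 fold change of the 9 genes was -0.37, beside -0.14 over all genes. Of the 9 values 0 were above 0, beside 36.8% of all genes. Leaving out puberty library 2 gave a median of 0.13 beside 0.02, with 7 of 9 above 0 (55.3% of all genes). From prepuberty to postpuberty the medians were 0.17 for the 9 genes and 0.05 for all, with 5 of 9 above 0 (62.1% of all genes). This median depended on single libraries. It was -0.24 (3 of 9 above 0, 60.2% of all genes) without prepuberty library 1 and 0.46 (9 of 9, 61.9%) without prepuberty library 2. Without prepuberty library 3 it was -0.015 (4 of 9, 51.8%). It was 0.05 to 0.25 without any 1 of the other libraries. From prepuberty to puberty the median was 0.04 (5 of 9, 40.5% of all genes) without prepuberty library 2. From puberty to postpuberty they were 0.42 and 0.19 with all libraries, and 0.12 and 0.03 without puberty library 2. Leaving out prepuberty library 2 as well, a choice made after seeing that it was the highest library for most of the genes, gave 9 of 9 values above 0 from prepuberty to puberty (57.1% of all genes) and 9 of 9 from prepuberty to postpuberty (62.0% of all genes), again with no call. Since the library was left out for being high in these genes, those counts are a description and the share of all genes is no matched comparison.

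None of the 9 genes had stages whose libraries did not overlap. Over all genes this held for 5.16% between puberty and prepuberty, 4.57% between postpuberty and prepuberty and 7.32% between postpuberty and puberty. Without puberty library 2 the count stayed at 0 of 9, with 11.7% of all genes not overlapping between puberty and prepuberty and 14.0% between postpuberty and puberty.

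**Figure D4:**
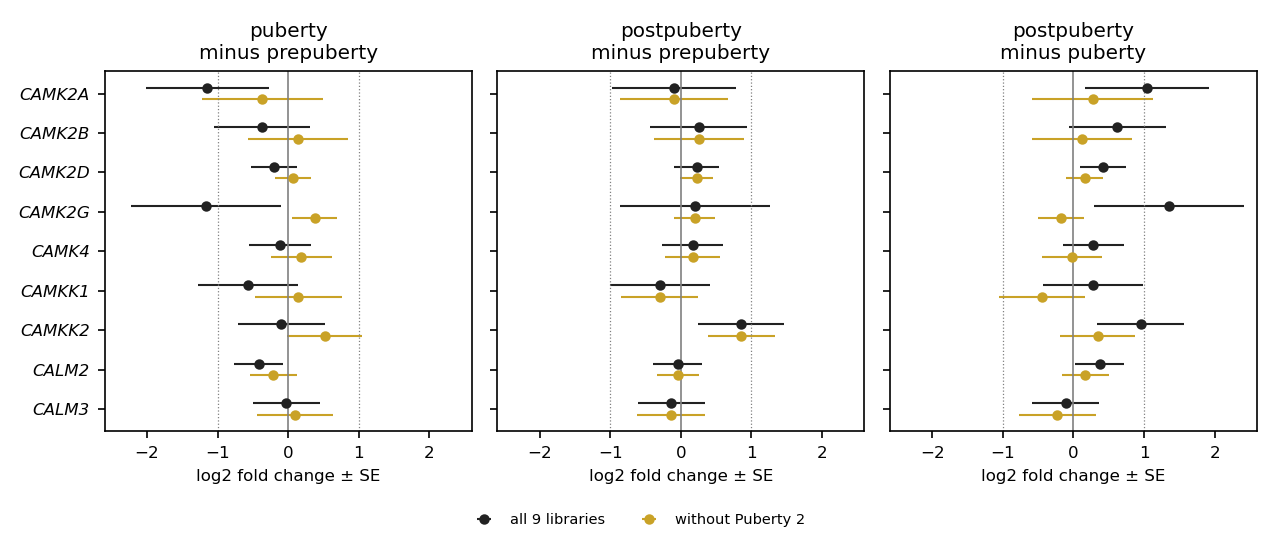
log2 fold change of each gene in the 3 comparisons with its standard error (bars), from limma on log2(FPKM + 1), for all 9 libraries (black) and without puberty library 2 (gold). Dotted lines mark a log2 fold change of 1 in each direction. CAMK2G moves from -1.16 to 0.37 in the left panel and from 1.36 to -0.18 in the right panel when that library is left out.

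A wider list of 48 genes that act with calmodulin was examined, and 44 passed the filter. None was called in any comparison, with 4, 1 and 3 at an unadjusted limma p below 0.05 from prepuberty to puberty, prepuberty to postpuberty and puberty to postpuberty, beside 1.82%, 0.815% and 2.14% of all genes. The counts were 2, 1 and 1 of 46 without puberty library 2, beside 1.66%, 1.86% and 2.11% of all genes. With all libraries the largest values from prepuberty to puberty and from puberty to postpuberty belonged to EEF2K, a calmodulin-dependent kinase that phosphorylates translation elongation factor 2 and so slows translation. It stood at 26.2, 17.4 and 23.0 FPKM at prepuberty, 2.98, 1.08 and 18.9 FPKM at puberty, and 22.9, 24.2 and 18.3 FPKM at postpuberty. The 2 low values were from puberty libraries 1 and 2, and the third puberty library overlapped both other stages. Its log2 fold change was -2.06 (SE 0.69, adjusted p 0.84) from prepuberty to puberty and 2.04 (SE 0.69, adjusted p 0.78) from puberty to postpuberty. Without puberty library 2 these were -1.36 and 1.35, the former smaller in size than the value of DLG4.

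DLG4, which encodes PSD-95, a scaffold of the postsynaptic density where CaMKII acts, was at 9.30, 11.3 and 4.90 FPKM at prepuberty, 1.81, 0.268 and 2.33 FPKM at puberty, and 2.66, 4.15 and 2.59 FPKM at postpuberty. Its prepuberty libraries lay above all others, and its puberty libraries lay below all others. The log2 fold change was -1.99 (SE 0.43, adjusted p 0.84) from prepuberty to puberty, -1.57 without puberty library 2, and -1.16 (SE 0.43, adjusted p 1) from prepuberty to postpuberty. Of the 44 genes, DLG4 and ATF1, a CREB-related transcription factor, were lower in every puberty library than in every prepuberty library, and 2 of 44 (4.55%) is near the 5.16% of all genes without overlap. Between prepuberty and postpuberty only DLG4 did not overlap, 1 of 44 (2.27%) against 4.57% of all genes. ADCY8, ATF1, CAMK2N1, DLG4 and PPP3CC were higher in every postpuberty library than in every puberty library, 5 of 44 (11.4%) against 5.25% of all genes higher and 7.32% without overlap in either direction. Without puberty library 2 the stages of 7 of 44 (15.9%) did not overlap, against 14.0% of all genes. ADCY8, a calmodulin-stimulated adenylyl cyclase, had a log2 fold change of 1.28 (SE 0.54, adjusted p 0.78) in that comparison and 0.76 without puberty library 2. ATP2B1, a calmodulin-regulated calcium pump of the plasma membrane, had -1.24 (SE 0.73) from prepuberty to puberty and 1.26 (SE 0.73) from puberty to postpuberty. It was at 0 in puberty library 2, and without that library the values were -0.27 and 0.29. PDE1A, a calmodulin-dependent phosphodiesterase, and PNCK, a CaM kinase I family member, had 0.56 (SE 0.56) and -0.56 (SE 0.84) from prepuberty to postpuberty, both with an adjusted p of 1.

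In tissue RNA, fewer cells of a type and less RNA per cell cannot be told apart, so the levels were set beside cell type markers. The 9 neuron markers in the table (such as SNAP25, STMN2 and NEFL) summed to 759, 1772 and 1354 FPKM at prepuberty, 1463, 555 and 1388 FPKM at puberty, and 547, 1578 and 1713 FPKM at postpuberty. The 8 oligodendrocyte markers ranged from 6527 FPKM in prepuberty library 2 to 14890 FPKM in prepuberty library 1. Over the 8 libraries without puberty library 2, CAMKK1 (Pearson r = 0.95, Spearman rho = 0.74) and CALM3 (r = 0.93, rho = 0.93) followed the neuron marker sum, as did CALM2 (r = 0.75, rho = 0.95) and CAMK2A (r = 0.61, rho = 0.71). For CAMK2G the values were r = 0.24 and rho = 0.52, and for CAMKK2 they were r = -0.54 and rho = 0.07, with postpuberty library 1 far from the other points. The remaining genes were CAMK2B (r = 0.47, rho = 0.52), CAMK2D (r = 0.12, rho = 0.40) and CAMK4 (r = -0.16, rho = -0.14). Against the oligodendrocyte sum, r was -0.94 for CALM2, -0.90 for CALM3, -0.82 for CAMK2A and CAMKK1, -0.75 for CAMK2B, and -0.66 to 0.18 for the other 4 genes. Against the sum of 7 astrocyte markers, r was -0.89 for CALM2, -0.88 for CALM3, -0.85 for CAMKK1, -0.70 for CAMK2B and -0.60 for CAMK2A. The other 4 genes had r from -0.42 to 0.35 against that sum. CAMKK1 and CALM3 also followed each other (r = 0.99), as did CALM2 and CALM3 (r = 0.90). These values describe 8 libraries with unlike marker sums, each scaled by its own mapped fragments, and the part of tissue makeup in the levels was not tested. The 6 markers of telencephalic excitatory neurons summed to 1.12 to 59.1 FPKM in the 8 libraries, and SLC17A7 ranged from 0.483 to 51.7 FPKM among them.

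**Figure D5:**
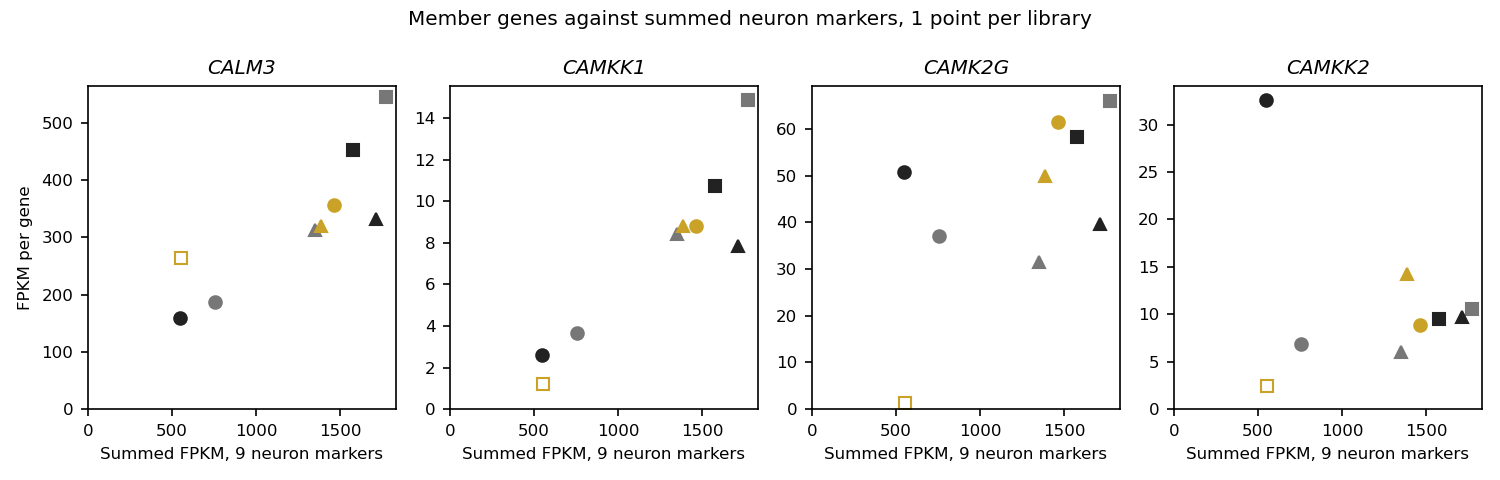
Level of CALM3, CAMKK1, CAMK2G and CAMKK2 in FPKM against the summed FPKM of 9 neuron markers, 1 point per library (grey prepuberty, gold puberty, black postpuberty; circle, square and triangle are libraries 1, 2 and 3; open square puberty library 2). CALM3 and CAMKK1 are higher where the marker sum is higher, while the highest CAMKK2 point, 32.6 FPKM, has the lowest marker sum, 547 FPKM.

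Among the 6857 genes with a mean of at least 5 FPKM, those whose levels were most like CAMK2A over the 8 libraries were FN3K (r = 0.98), FBXL16 (r = 0.98) and PHYH (r = 0.97). Without prepuberty library 2, in which CAMK2A was highest, the values were 0.95, 0.93 and 0.97. For CAMK2G the most alike were WDR11 (r = 0.98), ALDH18A1 (r = 0.97) and BLTP1 (r = 0.96), and leaving out prepuberty library 2 gave 0.98, 0.96 and 0.95. All these genes were picked for their high r on these same libraries. The values, also those without prepuberty library 2, are therefore a description.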

How the data were processed

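Hypothalamic RNA of 9 sheep, 1 library each, was analysed. The authors trimmed the reads with Trimmomatic (0.32 in the submitters' processing notes), aligned them with HISAT2 and estimated transcripts with StringTie on ARS-UI_Ramb_v3.0. The deposited values are FPKM per transcript, as the authors' assembly gave them, although the table is described as raw counts. Counts behind the FPKM are unknown here, so no counting interval is given. Of 76684 mRNA rows, 76682 were matched to RefSeq symbols and summed per gene. Genes or transcripts with a mean of at least 0.5 FPKM in a stage were fitted with limma 3.58.1 (R 4.3.3) on log2(FPKM + 1) over all 9 libraries with a variance trend, and a fold change on this scale understates that of low genes. The fit was tested on simulated data. Shares were compared by exact permutation of the Kruskal-Wallis statistic over 1680 placements. Alternatives varied the pseudocount, filter, scaling, variance model, replicate block and libraries. The genes named were the 9 members, their transcripts of at least 10% of a gene (CAMK2G 5%), the pathway genes with the 3 largest changes in each comparison, and the 3 genes most like CAMK2A and CAMK2G. Other transcripts and genes were singled out after their values were seen. The members and lists were chosen with earlier results of these data known. Nothing says that batches were balanced over stages.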

Additional observations from a re-analysis of the deposited data

How the results depend on the processing

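No member, pathway gene or CAMK2G transcript was called under any of the 20 other settings, and the lowest adjusted limma p of a member under them was 0.52. Values that changed sign were therefore uncalled throughout, and the cause was not tested unless a library was left out. Quantile normalization moved the median of all genes from -0.14 to 0.0091 from prepuberty to puberty, and equal totals moved it to -0.28. With quantile normalization the log2 fold change from prepuberty to puberty became 0.0022 for CAMK2D, 0.15 for CAMK4 and 0.16 for CAMKK2, and that from puberty to postpuberty became -0.035 for CAMK4, -0.064 for CAMKK1 and 0.16 for CALM3. CALM3 changed sign with upper quartile scaling (0.035, prepuberty to puberty) and with equal totals (0.080, puberty to postpuberty). Leaving out puberty library 2 and prepuberty library 2 together, added after seeing the data, turned the values from prepuberty to puberty to 0.55 (CAMK2A), 0.89 (CAMK2B), 0.30 (CAMK2D), 0.68 (CAMK2G), 0.47 (CAMK4), 0.56 (CAMKK1), 0.73 (CAMKK2), 0.045 (CALM2) and 0.48 (CALM3). From prepuberty to postpuberty it turned them to 0.82 (CAMK2A), 0.12 (CAMKK1), 0.21 (CALM2) and 0.26 (CALM3), and from puberty to postpuberty to -0.18 (CAMK2G), -0.019 (CAMK4) and -0.44 (CAMKK1). Leaving out each library in turn, the ranges that crossed 0 from prepuberty to puberty were -1.01 to 0.39 (CAMK2B), -0.41 to 0.065 (CAMK2D), -2.00 to 0.37 (CAMK2G), -0.45 to 0.19 (CAMK4), -1.03 to 0.15 (CAMKK1), -0.56 to 0.51 (CAMKK2) and -0.41 to 0.36 (CALM3). From prepuberty to postpuberty they were -0.61 to 0.82 (CAMK2A), -0.39 to 1.01 (CAMK2B), -0.015 to 0.51 (CAMK2G), -0.090 to 0.48 (CAMK4), -0.76 to 0.20 (CAMKK1), -0.24 to 0.21 (CALM2) and -0.51 to 0.29 (CALM3). From puberty to postpuberty they were -0.18 to 2.2 (CAMK2G), -0.019 to 0.62 (CAMK4), -0.44 to 0.77 (CAMKK1) and -0.43 to 0.32 (CALM3). In 14 of these 18 ranges an end came from leaving out puberty library 2 or prepuberty library 2. With the replicate number as a block (replicate block), 0 members were called in each comparison. Same-numbered libraries deviated together in 2 of 9 pairs (r above 0.1, range -0.31 to 0.51), and 3 of 9 libraries matched their own number best. The deviations were taken from stage means, so puberty library 2 also shaped those of the other puberty libraries. Prepuberty and postpuberty libraries 2 had r = 0.51 and libraries 1 had r = 0.25. Whether same-numbered libraries shared more than a number was not tested. Restricting to transcripts above 0 in all 9 libraries gave no value for the share of the leading CAMK2G transcript, which was at 0 in puberty library 2.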

Other observations

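CAMK2G also has 6 noncoding RefSeq transcripts in the table, which were left out of the gene sums. They summed to 1.69, 7.46 and 6.25 FPKM at prepuberty, 2.93, 0 and 2.98 FPKM at puberty, and 4.06, 2.75 and 5 FPKM at postpuberty. The highest single value was 6.12 FPKM for XR_009598540.1 in prepuberty library 2, and XR_009598541.1 reached 2.45 FPKM in prepuberty library 3, while it was at most 0.439 FPKM in the other libraries.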
